A study of Mus musculus with 4 samples.

Results

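The venous and lymphatic identity genes described here are 8 of the 32285 genes in the count matrices: *Nr2f1*, *Nr2f2*, *Dab2*, *Prox1*, *Lyve1*, *Stab1*, *Foxc1* and *Foxc2*. They were chosen by symbol, and each symbol matched 1 gene. Their unique molecular identifiers (UMIs, which count RNA molecules) were summed in each library over the cells of a class, and the classes were gated by marker genes that include none of the 8. A level is given in CPM, the UMIs of a gene per 1000000 UMIs of that class in that library. In the GRCm38 annotation the transcription factor genes are *Nr2f1* (ENSMUSG00000069171) at chr13:78188973-78199757 (minus), *Nr2f2* (ENSMUSG00000030551) at chr7:70351944-70366735 (minus), *Prox1* (ENSMUSG00000010175) at chr1:190118035-190170714 (minus), *Foxc1* (ENSMUSG00000050295) at chr13:31806633-31812476 (plus) and *Foxc2* (ENSMUSG00000046714) at chr8:121116171-121118895 (plus). The adaptor and receptor genes are *Dab2* (ENSMUSG00000022150) at chr15:6299788-6440712 (plus), *Lyve1* (ENSMUSG00000030787) at chr7:110850607-110863239 (minus) and *Stab1* (ENSMUSG00000042286) at chr14:31139013-31168641 (minus), with strands in parentheses.

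Veins, arteries and lymphatic vessels are lined by endothelial cells that carry different sets of transcription factors. *Nr2f2* encodes COUP-TFII, a nuclear receptor that maintains venous identity and is needed for the venous cells that give rise to lymphatic endothelium, and *Nr2f1* encodes its close relative COUP-TFI. *Prox1* encodes the homeobox factor that sets lymphatic endothelial fate, and it is also made in cardiomyocytes and in valve endothelium. *Foxc1* and *Foxc2* encode forkhead factors that act in vessel and lymphatic valve formation. *Lyve1* encodes a hyaluronan receptor and *Stab1* a scavenger receptor, and both are found on lymphatic or sinusoidal endothelium and on tissue macrophages. *Dab2* encodes an endocytic adaptor of clathrin-coated pits that is rich in veins and macrophages. In the developing heart the endothelium comprises the coronary endothelium of the vessel plexus, the mural endocardium that lines the ventricular lumen and the valve endocardium.

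Ventricles were taken from C57BL/6 embryos at E14.5, and single cells were captured with a droplet 3′ kit. The 2 control libraries were Tie2Cre; *Ets1* fl/+ and the 2 endothelial knockout (eKO) libraries were Tie2Cre; *Ets1* fl/fl, so the controls also carried the Cre and 1 floxed allele. Each library pooled the ventricles of 3 embryos of unrecorded sex, and the labels place all 4 libraries in 1 batch. Tie2Cre acts in the whole endothelium and in cells that descend from it or from blood, so deletion was not limited to an endothelial class. The comparison asks how loss of the transcription factor *Ets1* from this lineage alters the levels of the 8 genes.

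The libraries held 76931208 to 124140739 UMIs, and 41563 cells passed the filters, with medians of 9371.5 and 8957 UMIs per cell in control and 8791 and 5842 in eKO. The gates gave 1425 coronary endothelial, 4434 mural endocardial and 414 valve endocardial cells, 836 leukocytes (641 of them with C1q-type macrophage genes), 21077 cardiomyocytes, 7893 mesenchymal and 816 epicardial cells. Another 1019 endothelial cells were in no subclass gate. The valve gate was the least sharp: 1039 endothelial cells scored within 1.5-fold of its value and 1239 at or over it, against 631 and 4945 for the mural and 217 and 1543 for the coronary gate. All 10 endothelial markers were detected in each endothelial class and library. Pairs of libraries shared 0.239 to 0.44% of the barcodes of the smaller library. *Ets1* was 277.5 and 260.2 CPM in control mural endocardium and 118.3 and 91.3 CPM in eKO, and it fell in all 3 endothelial classes, by 1.11 (SE 0.17) in coronary, 1.31 (SE 0.14) in mural and 1.31 (SE 0.19) in valve cells on the log2 scale (edgeR quasi-likelihood test, adjusted p = 0.0157, 0.000894 and 0.00781). The call was lost in coronary cells when cells past 2 lineage gates were kept (adjusted p = 0.0667) and in valve cells without markers of other types (adjusted p = 0.223). Which exons are floxed is not given in the sources used here, and 3′ counts do not show whether those exons were present. The libraries also differed in sex-linked RNA: in mural endocardium *Xist* was 0 and 466.5 CPM in control and 498.5 and 857.9 CPM in eKO.

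In the 4 libraries together, the 8 genes had distinct patterns over 7 cell classes. Mural endocardium ranked first for *Nr2f2*, *Foxc1* and *Foxc2*, leukocytes for *Dab2*, *Lyve1* and *Stab1*, valve endocardium for *Prox1*, and mesenchymal cells for *Nr2f1*. No member had its highest mean in coronary endothelium.

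**Figure D1:**
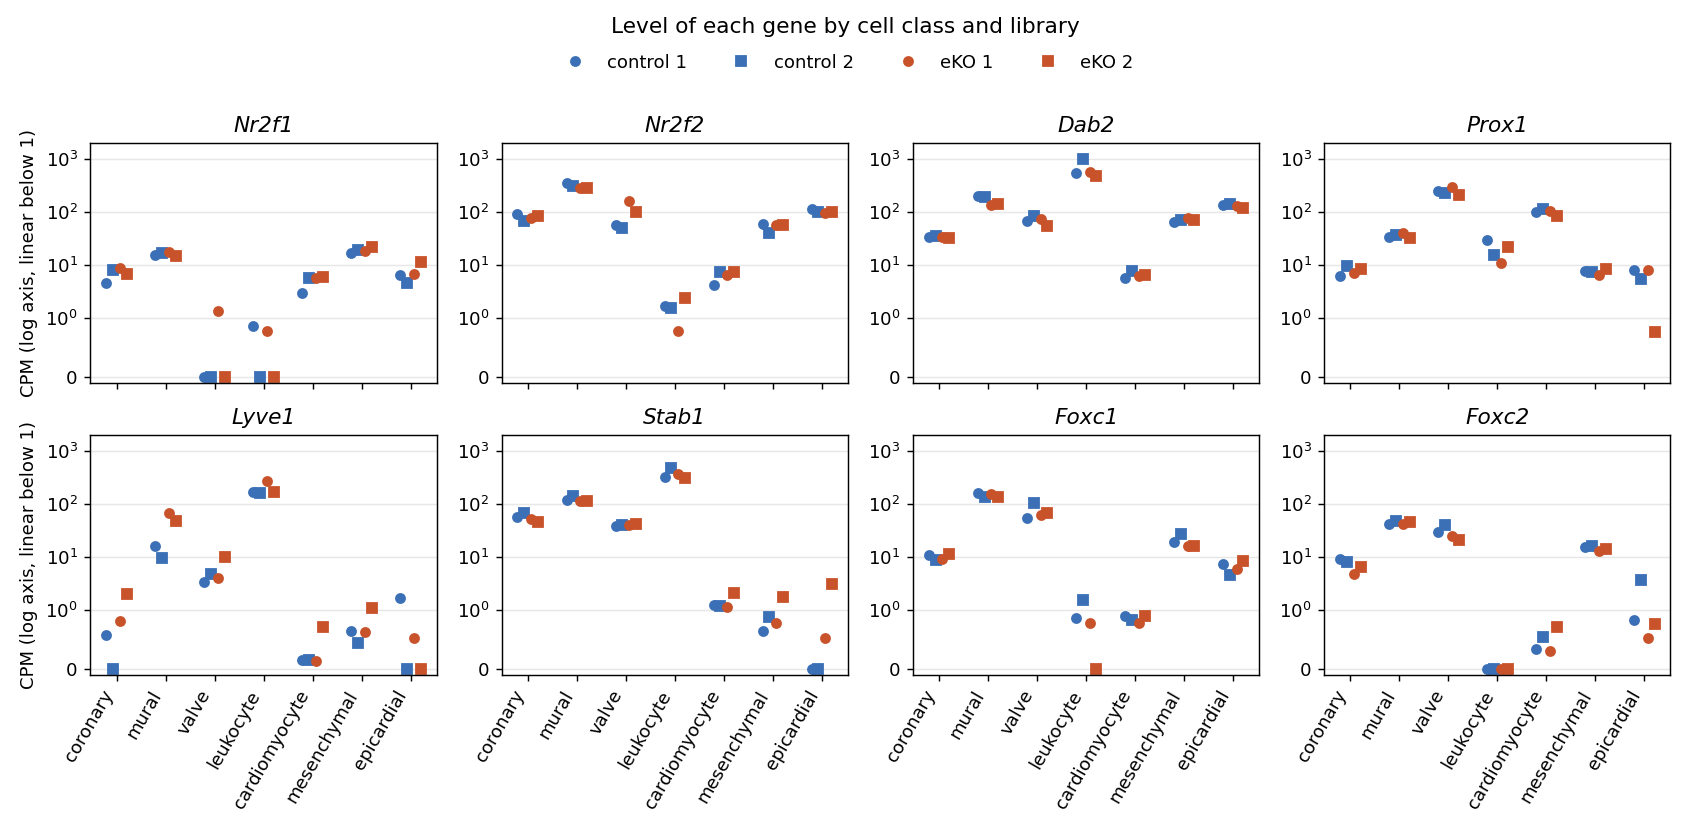
Level of each gene (CPM, log axis) in 7 cell classes, with 1 point for each of the 2 control and 2 eKO libraries. *Nr2f2* and *Foxc1* are highest in mural endocardium, *Prox1* in valve endocardium, and *Dab2*, *Lyve1* and *Stab1* in leukocytes.

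*Nr2f2* averaged 310.5 ± 36 CPM (SD, n = 4 libraries) in mural endocardium, and all 4 mural values lay above those of every other class. It was followed by epicardial cells (103.4 ± 8.73 CPM), valve endocardium (91.6 ± 50.2 CPM) and coronary endothelium (80.8 ± 10.4 CPM), whose ranges overlapped from each class to the next. The wide spread in valve endocardium lies between the genotypes, as described further on, and also between the 2 eKO libraries. Its SD was 4.96 CPM within control and 43.5 CPM within eKO. Mesenchymal cells stood at 53.6 ± 8.73 CPM, cardiomyocytes at 6.38 ± 1.52 CPM and leukocytes at 1.62 ± 0.677 CPM, without overlap between neighbours. Its relative *Nr2f1* was far less abundant in UMIs, with 19.2 ± 2.12 CPM in mesenchymal cells and 16.3 ± 1.33 CPM in mural endocardium, ranges that overlapped. Coronary endothelium had 7.07 ± 1.91 CPM of *Nr2f1*, and valve endocardium had 1 UMI in all.

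Because the deleted factor is an ETS protein, the sequence before the *Nr2f2* start is shown with the ETS core GGAA and its reverse complement TTCC in capitals. The window is chr7:70366697-70366996 of GRCm38.p6, minus strand, from RefSeq, 250 bases before to 50 after the annotated start.

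Nr2f2: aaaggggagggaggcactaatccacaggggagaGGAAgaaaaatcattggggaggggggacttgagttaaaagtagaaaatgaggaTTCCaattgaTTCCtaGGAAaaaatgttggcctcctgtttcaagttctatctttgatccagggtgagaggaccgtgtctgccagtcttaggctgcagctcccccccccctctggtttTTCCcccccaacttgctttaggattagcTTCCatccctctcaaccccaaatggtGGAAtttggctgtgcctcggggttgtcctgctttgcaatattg

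The window holds 7 matches of GGAA on either strand and 0 of the longer CCGGAAG, searched on both strands. Of 32851 windows of 300 bases in the same table, 96% held GGAA, with a median of 3 matches and quartiles of 2 and 5, and 8.86% held CCGGAAG. Windows were present for 6 of the 8 genes (9 windows) and for those other than *Nr2f2* the GGAA count was 1 to 6 and the CCGGAAG count 0. *Lyve1* and *Foxc2* had no entry. A match is a run of letters and was not tested as a binding site.

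*Prox1* was 247.1 ± 36.1 CPM in valve endocardium, 100.2 ± 13 CPM in cardiomyocytes, 36 ± 3.81 CPM in mural endocardium and 19.6 ± 8.3 CPM in leukocytes, each range apart from the next. Coronary endothelium, mesenchymal and epicardial cells had 7.76 ± 1.51, 7.48 ± 0.781 and 5.62 ± 3.46 CPM, with overlap. Both forkhead genes followed the order mural, valve, mesenchymal, coronary: *Foxc1* was 143.8 ± 12.8, 72.1 ± 22.3, 19.5 ± 5.09 and 10.1 ± 1.32 CPM in these classes. For *Foxc2* the values were 43.8 ± 3.06, 28.8 ± 8.08, 14.6 ± 1.44 and 7.07 ± 1.85 CPM, and neither gene overlapped between neighbours in that order. Leukocytes held 0 UMIs of *Foxc2*, which allows up to 0.691 CPM over the 4 libraries, and 3 UMIs of *Foxc1*. Limits of this kind and the intervals given for shares of cells cover counting error only.

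The receptors and the adaptor were led by leukocytes. *Dab2* averaged 655.1 ± 239.1 CPM there, 169.2 ± 34 CPM in mural endocardium and 132.1 ± 10.6 CPM in epicardial cells, and the last pair overlapped. *Stab1* was 367.5 ± 74.5 CPM in leukocytes, 122 ± 13.2 CPM in mural endocardium, 55.3 ± 8.85 CPM in coronary endothelium and 40 ± 1.14 CPM in valve endocardium, all apart, and at most 3.05 CPM in any library of the other classes. *Lyve1* was 191.9 ± 50.7 CPM in leukocytes and 35.3 ± 27.6 CPM in mural endocardium, where the wide spread comes with the genotype described further on. Its levels in coronary endothelium (0.845 ± 0.842 CPM), mesenchymal, epicardial and cardiomyocyte classes overlapped.

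Tests between endothelial classes used all 4 libraries with library as a term. Against mural endocardium, 7 of the 8 genes were lower in valve endocardium and *Prox1* was higher, all 8 past the threshold of 0.05, where 29.5% of 11799 genes were called and 14.2% were called lower. *Prox1* was 2.75 higher on the log2 scale (SE 0.10, adjusted p = 4.3e-12). *Dab2*, *Stab1*, *Lyve1* and *Nr2f2* were lower, with log2 differences of -1.29, -1.64, -2.65 and -1.85 (SE 0.12 to 0.33, adjusted p = 2.6e-08 to 1.1e-05). *Foxc1* was lower too, at -1.03 (SE 0.15, adjusted p = 5.9e-05), and so was *Foxc2*, at -0.60 (SE 0.17, adjusted p = 0.0123), which missed the threshold without eKO 1 or without eKO 2 (adjusted p = 0.0603 and 0.0642). *Nr2f1* had 1 UMI among 3080458 in valve endocardium and 506 among 31211746 in mural endocardium, a 49.9-fold lower level (95% counting interval 8.92 to 1976).

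In coronary endothelium all 8 genes were lower than in mural endocardium, where 66.8% of 12287 genes were called and 33.7% were called lower. The log2 differences ran from -0.97 for *Stab1* (SE 0.07) and -1.07 for *Nr2f1* (SE 0.16), through -1.76 for *Nr2f2* (SE 0.08), -2.05 for *Prox1* (SE 0.13), -2.13 for *Dab2* (SE 0.09) and -2.43 for *Foxc2* (SE 0.14), to -3.64 for *Foxc1* (SE 0.09) and -5.06 for *Lyve1* (SE 0.25). The adjusted p-values were at most 6e-05 (edgeR). Of the 12 genes of a venous list, 10 were tested between these classes, and 4 were higher in coronary endothelium, among them *Aplnr* and *Nrp2* (log2 5.16 and 2.71), while 6 were lower, among them *Ephb4* (log2 -0.81). *Aplnr* is among the markers of the coronary gate, so its difference was fixed by the gate. The others were *Fabp4*, *Cd36*, *Gpihbp1*, *Tcf15*, *Kcne3*, *Mgll* and *Rgcc*, a capillary marker in the authors' study. The gate also left out cells at or over the mural value. Whether venous coronary cells were left out was not tested. Endothelial cells in no subclass gate had 189.3 and 188.5 CPM of *Nr2f2* in control and 224.3 and 275.3 CPM in eKO.

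Between valve endocardium and coronary endothelium, 5 of the 6 genes tested were past the threshold, where 47% of 10428 genes were called. *Prox1*, *Foxc1*, *Foxc2* and *Dab2* were higher in valve endocardium, with log2 differences of 4.86, 2.63, 1.86 and 0.90, and *Stab1* was lower, at -0.62 (SE 0.13 to 0.23 for the 5 genes, adjusted p at most 0.00156). *Nr2f2* differed by -0.04 (SE 0.20, adjusted p = 0.899), and without eKO 1 by -0.45 (adjusted p = 0.0349). This value pools genotypes with opposite orders: mean *Nr2f2* was 54.09 CPM in valve against 80.35 CPM in coronary cells in control. In eKO the means were 129.2 and 81.15 CPM.

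In mural endocardium, loss of *Ets1* came with a higher level of the hyaluronan receptor *Lyve1*. It was the sole member past the threshold of 8 tested, where 3.07% of 13008 genes were called, and 2 members passed an unadjusted p of 0.05. *Lyve1* was 16.1 and 9.57 CPM in control (134 and 62 UMIs) and 68.8 and 46.8 CPM in eKO (509 and 421 UMIs). Both eKO libraries lay above both controls, and the lower eKO value exceeded the higher control value. The log2 fold change was 2.20 (SE 0.24, edgeR adjusted p = 0.000777), rank 24 of 13008 genes by p and rank 26 from the top by fold change. Under the 11 other settings it was 1.93 to 2.63, with adjusted p from 2.7e-29 to 0.00201.

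**Figure D2:**
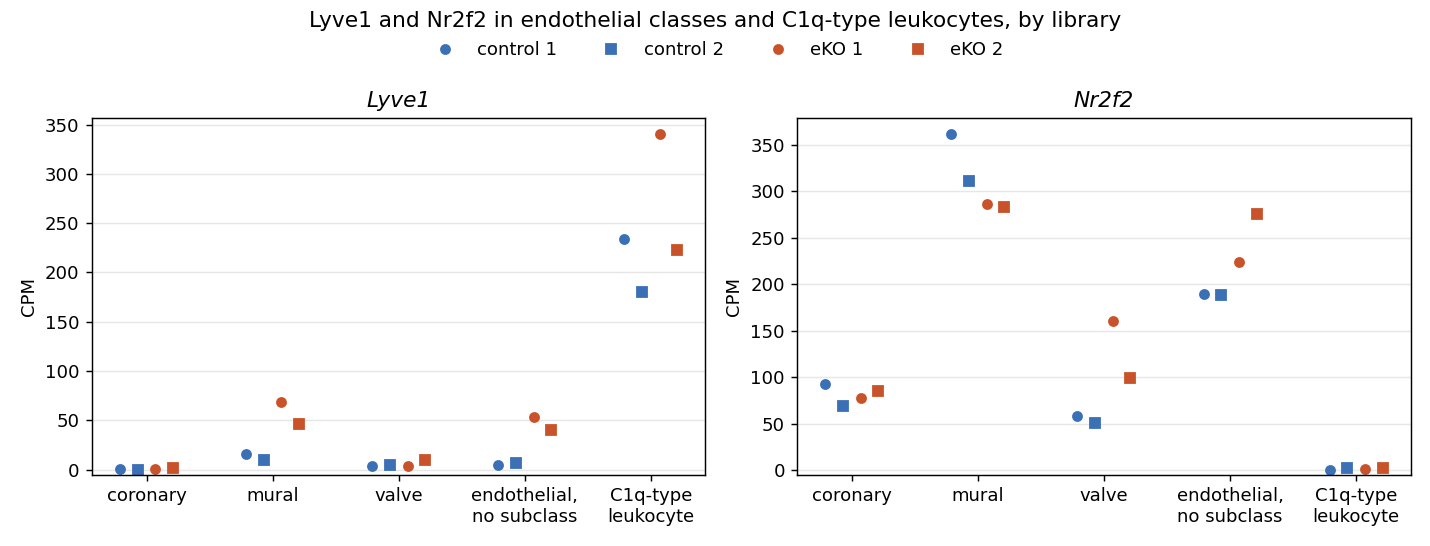
Levels of *Lyve1* and *Nr2f2* (CPM) in each control and eKO library, by cell class. In mural endocardium the 2 eKO libraries have 68.8 and 46.8 CPM of *Lyve1* against 16.1 and 9.57 CPM in control, and in valve endocardium *Nr2f2* is 160 and 98.4 CPM in eKO against 57.6 and 50.6 CPM.

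Summed counts cannot tell more expressing cells from more RNA per cell, and at these levels neither can the share of cells with a UMI. The share of cells with a *Lyve1* UMI, after each cell was thinned to 2000 UMIs, was 3.14% (95% Clopper-Pearson interval 2.15 to 4.43) and 1.67% (0.865 to 2.9) in control and 7.65% (5.98 to 9.61) and 6.63% (5.49 to 7.94) in eKO mural endocardium. The mean share was 4.73 percentage points higher in eKO (exact permutation test, two-sided p = 0.3333, the smallest that 2 against 2 libraries allow). In cardiomyocytes, which should lack *Lyve1*, the shares were 0.0744, 0.0357, 0 and 0.0956%, with median depths of 8277 to 13400 UMIs before thinning against 4421 to 7488 in mural endocardium.

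Other cells that express *Lyve1* were examined within the mural class. The summed level of 8 leukocyte markers was 12.2 and 7.72 CPM in control and 6.75 and 9.9 CPM in eKO, and *Ptprc* was at 0 in 3 libraries and at 0.222 CPM in eKO 2. The 5 macrophage markers summed to 40.4 and 35.4 CPM in control and 29.7 and 30.4 CPM in eKO, most of it *Cx3cr1*, while *C1qa* was 0.463 to 0.81 CPM in all libraries. In cells with 0 UMIs of either list the log2 fold change of *Lyve1* was 2.33 (adjusted p = 0.000436). The 8 coronary markers went within the mural class from 109.9 and 115.4 to 157.8 and 209.1 CPM, the 7 mesenchymal markers went from 518.9 and 478.1 to 721.2 and 699.7 CPM, and the mural markers themselves from 3627 and 3609 to 2850 and 2759 CPM. Coronary and mesenchymal cells themselves had at most 2 CPM of *Lyve1*.

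The groups also differed in sex-linked RNA, so mural cells were split by it within libraries. Among cells with *Xist* and no Y-linked UMI, *Lyve1* was 11.1 CPM in control 2 and 61 and 47 CPM in eKO 1 and eKO 2. Among cells with a Y-linked UMI and no *Xist*, it was 16 and 8.83 CPM in control and 87.5 CPM in eKO 1. The eKO values were above the control values in both kinds of cell.

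*Lyve1* was set beside other members in single mural cells, as shares that were not tested. In the 4 libraries together, 5.51% of 1833 mural cells with an *Nr2f2* UMI also had a *Lyve1* UMI, against 4.96% of those without. *Stab1* was found in 12.9 and 16.7% of the 31 and 12 *Lyve1*-positive cells of the controls, against 22.5% of the others in each, and in 20.9 and 22.5% of the 67 and 111 *Lyve1*-positive cells of eKO, against 20.9 and 20.6%. Of *Prox1*-positive cells, 0 of 55 and 0 of 50 had *Lyve1* in control, against 3.33 and 1.79% of the others, and 5 of 69 and 6 of 98 in eKO (7.25 and 6.12%), against 7.68 and 6.67% of the others. In C1q-type leukocytes *Stab1* was in 87.5% of 88 *Lyve1*-positive cells and 38.4% of the others, and the order held in each of the 4 libraries (85.2 to 93.8% against 36.7 to 47.7%).

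Endothelial cells in no subclass gate had 5.03 and 6.95 CPM of *Lyve1* in the controls and 53.4 and 40.6 CPM in eKO, without overlap. Other members did not overlap there either. *Nr2f2* (189.3 and 188.5 against 224.3 and 275.3 CPM) and *Foxc2* (26.3 and 26.3 against 41.3 and 38.8 CPM) were higher in eKO. *Prox1* (122.3 and 148.3 against 116.8 and 90.6 CPM) and *Stab1* were lower. A difference in the make-up of these cells was not tested. For *Lyve1*, valve endocardium had 3.32 and 4.82 CPM in control and 4.07 and 9.84 CPM in eKO, from 16 UMIs in all, and coronary endothelium 15 UMIs. Both were too low to pass the filter for a test within the class. The difference between the eKO effects in valve and mural endocardium was -1.46 (SE 0.81, adjusted p = 0.737), so the effect is not shown to differ between them.

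The endocytic adaptor *Dab2* had the next smallest p in mural endocardium. It was 204.4 and 192.1 CPM in control and 138.3 and 141.8 CPM in eKO, and the groups did not overlap. The log2 fold change was -0.44 (SE 0.12), with an adjusted p of 0.0819 that missed the threshold, and under total count scaling it was -0.50 with an adjusted p of 0.0446. The thinned share of cells with a *Dab2* UMI was 31.2 and 31.7% in control and 22.8 and 23.3% in eKO, a mean difference of -8.43 percentage points (exact permutation test, p = 0.3333). *Dab2* did not overlap within either kind of mural cell split by sex-linked RNA: 187.2 CPM in control 2 against 137.2 and 144.9 CPM in eKO for cells with *Xist*, and 204 and 207 against 146.7 CPM for cells with Y-linked UMIs.

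In coronary endothelium *Dab2* was 33.9 and 35.3 CPM in control and 33.4 and 32.9 CPM in eKO. The difference of its eKO effect between coronary and mural endothelium was 0.47 (SE 0.14, adjusted p = 0.116), which did not pass the threshold.

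The other 6 members had small changes in mural endocardium, with log2 fold changes from -0.18 for *Nr2f2* to 0.08 for *Prox1* and adjusted p from 0.471 to 0.957. *Nr2f2* was 361.1 and 311.5 CPM in control and 286.5 and 282.9 CPM in eKO, so that both eKO libraries were below both controls by less than the test could call (SE 0.14, adjusted p = 0.471). *Prox1* was 34.2 and 37.4 against 40.7 and 31.9 CPM, *Foxc1* 157.9 and 133.6 against 151.3 and 132.5 CPM, and *Foxc2* 41.1 and 47.1 against 41.2 and 45.6 CPM. These 3 overlapped between the groups. *Stab1* (118.7 and 141.3 against 111.8 and 116 CPM) did not overlap, and *Nr2f1* (15.6 and 17 against 17.8 and 14.9 CPM) did. A lack of overlap in uncalled genes is not evidence of a change, since the share of all genes without overlap was not counted.

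**Figure D3:**
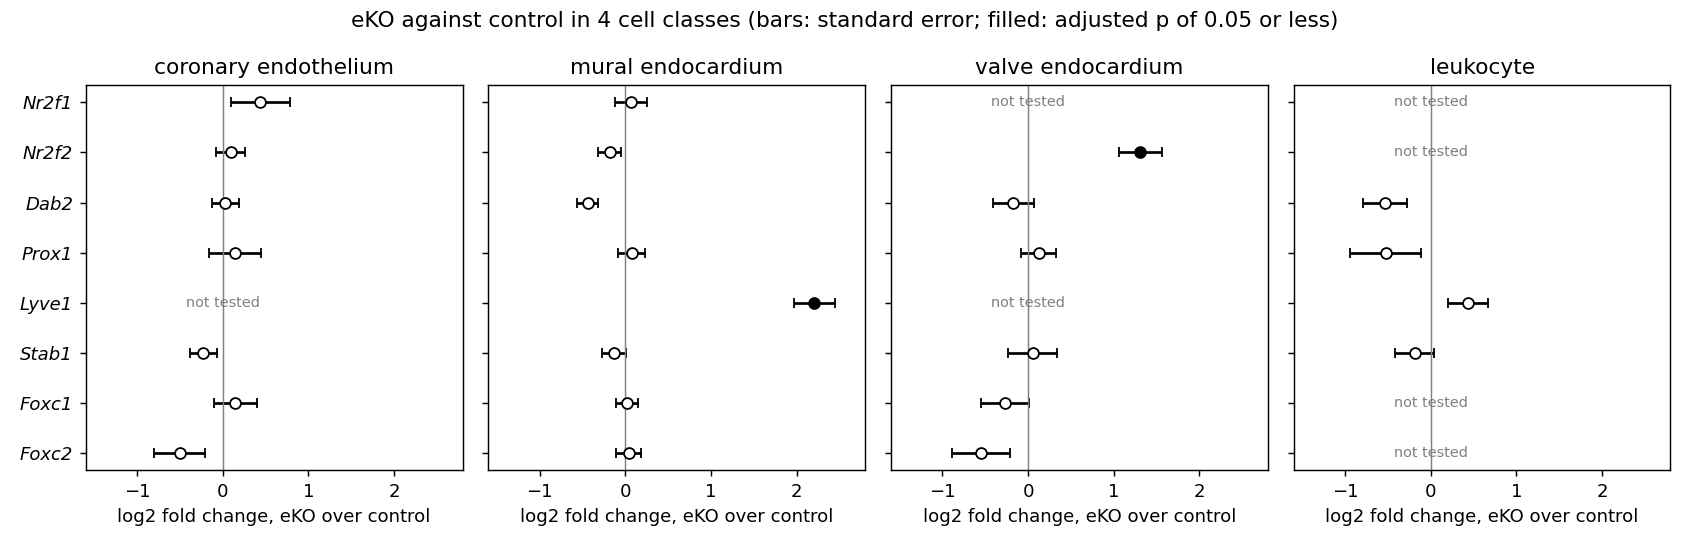
Log2 fold change of each gene in eKO against control (points) with its standard error (bars) in coronary endothelium, mural endocardium, valve endocardium and leukocytes, from edgeR on 2 against 2 libraries. *Lyve1* in mural endocardium (2.20) and *Nr2f2* in valve endocardium (1.31) are the 2 that passed the threshold.

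In valve endocardium the venous factor *Nr2f2* was higher in eKO. It was the sole member called of 6 tested, where 0.268% of 8594 genes were called, and *Nr2f1* and *Lyve1* were too low to test. *Nr2f2* was 57.6 and 50.6 CPM in control (52 and 42 UMIs) and 160 and 98.4 CPM in eKO (118 and 60 UMIs). Both eKO libraries lay above both controls. The log2 fold change was 1.31 (SE 0.25, edgeR adjusted p = 0.0473), close to the threshold. The call was lost without eKO 1 (0.91, adjusted p = 0.233), under DESeq2 (1.31, adjusted p = 0.228), with stricter gates (1.29, adjusted p = 0.294) and with cells past 2 lineage gates kept (1.14, adjusted p = 0.129), and over all settings the adjusted p ran from 7.6e-05 to 0.557.

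The thinned share of valve cells with an *Nr2f2* UMI was 10% (interval 4.68 to 18.1) and 3.41% (0.709 to 9.64) in the controls and 16.1% (9.32 to 25.2) and 17.2% (11 to 25.1) in eKO. The intervals of single libraries overlapped, apart from that of eKO 2 and that of control 2, and the mean difference was 9.97 percentage points (exact permutation test, p = 0.3333). In leukocytes, which hold next to no *Nr2f2*, the shares were 0.602, 0, 0 and 0.388%. Split by sex-linked RNA, valve cells with *Xist* had 71.8 CPM of *Nr2f2* in control 2 and 186.4 and 101.7 CPM in eKO, and those with Y-linked UMIs had 57.5 and 35.3 CPM in control and 135.5 CPM in eKO 1.

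Mural endocardium has the highest *Nr2f2* level, so its markers were read in the valve class. The 6 mural markers summed to 850.7 and 665.9 CPM in control and 722.5 and 625.1 CPM in eKO, with *Fibin* at 0 in all and *Npr3* at 53.2, 55.4, 55.6 and 45.9 CPM. The valve gate admitted only cells that scored higher for valve than for mural markers, which capped these sums in advance. In mural endocardium the same markers were lower in eKO (2850 and 2759 against 3627 and 3609 CPM). The sums therefore cannot show what share of mural cells the valve class held, which was not tested. The leukocyte markers went from 5.54 and 6.02 to 10.8 and 27.9 CPM, with *Ptprc* at 0, and leukocytes had 0.775 to 2.42 CPM of *Nr2f2*. The 8 epicardial markers went from 8.86 and 9.63 to 17.6 and 13.1 CPM, and epicardial cells had 95.9 to 116 CPM of *Nr2f2*. A share of epicardial cells in the valve class was not tested. In valve cells with 0 UMIs of leukocyte, macrophage and mural markers (*Tmem108* aside), 34 and 29 cells in the controls and 41 and 66 in eKO, the log2 fold change was 1.38 with an adjusted p of 0.557, and 3 genes of the whole table were then called.

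The eKO effect on *Nr2f2* differed between valve and mural endocardium by 1.49 on the log2 scale (SE 0.23, adjusted p = 0.013), the sole member called there, where 0.198% of 12655 genes were called. With stricter gates the difference was 1.44 (adjusted p = 0.0294). Between valve and coronary endothelium the difference was 1.19 (SE 0.27, adjusted p = 0.109), and no member was called there at 0.151% of 11234 genes, with 1 at an unadjusted p of 0.05. Coronary endothelium had 92.3 and 68.4 CPM of *Nr2f2* in the controls and 77 and 85.3 CPM in eKO, which overlap. Binding of *Ets1* to the *Nr2f2* promoter window shown with its levels was not measured here.

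The remaining members of the valve class had log2 fold changes from -0.55 for *Foxc2* (SE 0.34) to 0.13 for *Prox1* and adjusted p from 0.643 to 0.978. *Prox1*, the most abundant member there in UMIs, was 251.4 and 230 CPM in control and 295.5 and 211.6 CPM in eKO, and its thinned shares were 17.8, 19.3, 17.2 and 23%. *Foxc2* was 29.9 and 39.7 against 24.4 and 21.3 CPM, which did not overlap and did not pass the test. With stricter gates its log2 fold change was 0.10, in the other direction. *Foxc1* (55.4 and 104.8 against 61 and 67.3 CPM), *Stab1* (38.8 and 40.9 against 39.3 and 41 CPM) and *Dab2* (66.5 and 85.5 against 73.2 and 55.8 CPM) overlapped.

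In coronary endothelium none of the 7 members tested was called by edgeR or by DESeq2, and 0 passed an unadjusted p of 0.05 in edgeR, where 0.637% of 11302 genes were called. The log2 fold changes ran from -0.50 for *Foxc2* (SE 0.30) to 0.44 for *Nr2f1* (SE 0.34), with adjusted p from 0.525 to 0.954. Over the 11 other settings that of *Foxc2* was -0.75 to -0.26. *Foxc2* was 9.14 and 7.85 CPM in control and 4.84 and 6.45 CPM in eKO, and *Nr2f1* was 4.57 and 8.18 against 8.88 and 6.67 CPM, with a log2 fold change of 0.00037 without control 1 and 0.83 without control 2, neither called. *Stab1* was 55.8 and 67.1 against 52.2 and 46 CPM. Of these, *Foxc2* and *Stab1* did not overlap between the groups.

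Within the coronary class, arterial and venous genes were set beside *Nr2f2* in single cells. After thinning, *Nr2f2* was found in 15.6, 12.4, 13.2 and 14.7% of coronary cells of control 1, control 2, eKO 1 and eKO 2. The arterial connexin *Gja5* was found in 1 of 197 *Nr2f2*-positive cells (0.508%) and in 6.01% of the others, and in each library the share was lower in the *Nr2f2*-positive cells (0 to 1.33% against 3.91 to 10.2%). *Gja4*, another arterial connexin, was in 5.58% and 14.1%, also lower in each library. The apelin receptor gene *Aplnr*, found on venous and sprouting endothelium and used in the gate, was in 22.8% of *Nr2f2*-positive cells and 12.5% of the others, with control 1 the exception (13.8 against 16.2%). *Flt4* was in 14.2% and 9.65%, higher in each library. *Dab2* was in 8.12% and 5.08%, with control 2 the exception (4 against 5.08%). These shares are a description over cells of 4 libraries and were not tested.

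In mural endocardium none of the following shares had the same order in all 4 libraries. *Gja4* was in 14.3% of cells with an *Nr2f2* UMI and 15.1% of those without, and *Flt4* in 3.76% and 3.51%. *Foxc2* was in 8.26% of *Foxc1*-positive cells and 8.06% of the others. *Nr2f2* itself was in 49.8, 43.8, 41.1 and 39.9% of mural cells.

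Leukocytes are partly of the Tie2Cre lineage, and their *Ets1* level was low (12.1 to 20.6 CPM) and was not called (log2 fold change -0.34, SE 0.40, adjusted p = 0.997). None of the 4 members tested there was called by edgeR or DESeq2, and 0 passed an unadjusted p of 0.05, where 0.122% of 9012 genes were called. *Dab2* was 551.5 and 1010 CPM in control and 569 and 489.7 CPM in eKO, with a log2 fold change of -0.53 (SE 0.26, adjusted p = 0.997), and of -0.92 without control 1 and -0.0078 without control 2, neither called. *Lyve1* was 170.7 and 159.6 against 267.5 and 169.7 CPM, with a log2 fold change of 0.43 (SE 0.23, adjusted p = 0.997), and of 0.08 without eKO 1 and 0.71 without eKO 2, neither called. The C1q-type leukocytes carried most of both, with 234.3 and 180.2 against 340 and 222.7 CPM of *Lyve1* and 742.9 and 1136 against 718.4 and 635.2 CPM of *Dab2*. The thinned share of C1q-type cells with a *Lyve1* UMI was 12.8, 17.7, 18.2 and 15.3%.

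In the other classes no member was called with all 4 libraries. In cardiomyocytes 0% of 16436 genes were called by edgeR, 1693 passed an unadjusted p of 0.05 and DESeq2 called 25, with 0 of the 7 members tested past either. *Lyve1* was too low to test there with all libraries (0.147 and 0.149 CPM in control, 0.124 and 0.704 CPM in eKO). Without eKO 1 its log2 fold change was 2.36, which rests on eKO 2 alone. In cardiomyocytes the endothelial markers summed to 31.9 and 25 CPM in control and 24.1 and 61 CPM in eKO. The leukocyte markers summed to 3.6 and 3.21 CPM in control and 3.43 and 7.42 CPM in eKO. RNA from such cells as a source was not tested. In epicardial cells 0% of 10120 genes were called, with 708 at an unadjusted p of 0.05 and 0 by DESeq2, and 3 members were tested. In mesenchymal cells 0.0202% of 14872 genes were called by edgeR (3 genes) and 123 by DESeq2, and of 7 members tested 0 passed either, with *Foxc1* (19.5 and 26.7 against 15.9 and 16 CPM) at an unadjusted p of 0.031. *Prox1* in cardiomyocytes was 98.8 and 114.8 CPM in control and 103.7 and 83.4 CPM in eKO.

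*Prox1* was detected in mural cells at shares of 5.58, 6.95, 7.88 and 5.86%. In leukocytes, which should lack it, the shares were 6.63, 2.25, 2.16 and 4.26% (median depths of 3978 to 6871 UMIs), and in coronary cells 2.69, 2.48, 1.69 and 0.982%. Mesenchymal cells had 1.71, 1.73, 1.31 and 1.8% and epicardial cells 2.69, 0.769, 0.833 and 0.379%. The mural share was above that of coronary, mesenchymal and epicardial cells in each library. Against leukocytes it was lower in control 1, and the intervals of the 2 classes overlapped in all libraries but eKO 1 (6.18 to 9.86% against 0.592 to 5.44%). Cardiomyocytes had *Prox1* in 15.7 to 20.6% of cells. Within mural cells of the 4 libraries together, *Nr2f2* was in 42.3% of *Prox1*-positive and 43.1% of *Prox1*-negative cells, and *Flt4* in 3.31 and 3.64%, and neither order was the same in all libraries.

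Cells of lymphatic type were sought by a combination, *Prox1* with at least 3 of *Flt4* (the VEGF-C receptor), *Pdpn* (podoplanin), *Ccl21a* (a lymphatic chemokine), *Reln* and *Mmrn1*, a rule chosen after values had been seen. With all UMIs, 2 of 1730 endothelial cells in control 1 met it (0.116%, 95% Clopper-Pearson interval 0.014 to 0.417), as did 2 of 1216 in control 2 (0.1645%, 0.0199 to 0.593). In eKO 1 it was 0 of 1520 cells and in eKO 2 it was 0 of 2826, with upper ends of the same interval at 0.242 and 0.13%. Both upper ends lie within the control intervals. Neither is below the control 1 share, but that of eKO 2 is below the control 2 share. With libraries pooled, 0 of 4346 eKO cells met the rule, with an upper end of 0.0848%. The pooled controls had 4 of 2946 cells (0.136%, 0.037 to 0.347). A difference between the genotypes was not tested with so few cells. Both eKO libraries were shallower in the classes that held these cells, with medians of 9766 and 6625 UMIs against 11610 and 12160 in control in coronary cells and of 5224 and 3673 against 6631 and 6673 in endothelial cells in no subclass gate.

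The 4 cells held 1, 4, 17 and 7 UMIs of *Prox1* and 10, 30, 20 and 50 of *Ccl21a*, and each had *Flt4*, *Pdpn* and *Reln*. All 4 had *Nr2f2* (1, 2, 5 and 2 UMIs) and *Stab1* (2, 2, 13 and 10 UMIs), and 1 of them had *Lyve1* (3 UMIs). The first was in the coronary class and the other 3 were in no subclass gate. *Ccl21a* was found in no other gated endothelial cell. With weaker rules the counts were 173 control and 96 eKO cells with *Prox1* and at least 1 of the 5 genes, and 15 and 8 with at least 2. These came from 615 *Prox1*-positive cells of 2946 endothelial cells in control and 700 of 4346 in eKO. *Flt4*, which is in the rule, was itself lower in eKO mural endocardium (log2 -1.11), so the counts are not independent of that fall.

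The wider gene lists place the 8 genes among their pathway partners, and the lists were chosen with earlier results of these data known. In mural endocardium, 10 of 12 venous genes were tested, 1 rose and 1 fell, where 3.07% of all genes tested were called. *Tll1*, a metalloprotease gene, rose from 25.5 and 17.5 to 52.1 and 34.1 CPM (log2 1.05, SE 0.22, adjusted p = 0.0312). *Flt4* fell from 25.7 and 34.6 to 14.7 and 12.1 CPM (log2 -1.11, SE 0.20, adjusted p = 0.0148). The median over the list was -0.49, against 0.00 over all genes tested.

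Of 8 lymphatic genes tested in mural endocardium, *Flt4* and *Sox18* fell, beside the 3.07% called of all genes (185 higher and 214 lower of 13008), and the median was -0.37. *Sox18* encodes a factor that acts upstream of *Prox1* in lymphatic specification, and it went from 38.4 and 26.3 CPM to 4.73 and 8.01 CPM (log2 -2.26, SE 0.26, adjusted p = 0.00107). Of 10 arterial genes tested, the ephrin gene *Efnb2* fell from 165.7 and 146.1 to 106.9 and 100.5 CPM (log2 -0.53, SE 0.13, adjusted p = 0.0492), a call lost under 7 of the 11 other settings, and the median was -0.23. Of 6 forkhead and COUP relatives tested, *Foxo1* fell from 255 and 251.9 to 172.9 and 138.7 CPM (log2 -0.65, SE 0.14, adjusted p = 0.0326), a call lost under 3 of 11. Neither of the 2 scavenger receptor genes tested passed.

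**Figure D4:**
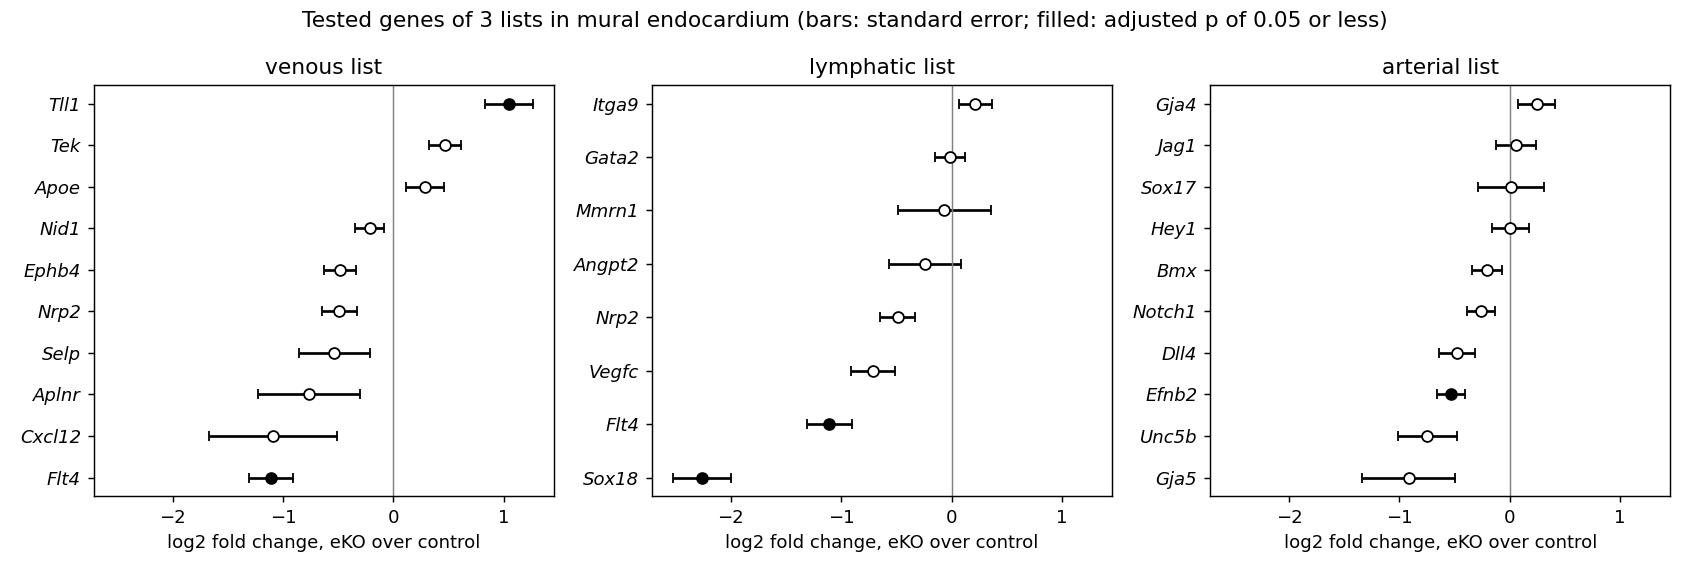
Log2 fold change in eKO against control of each tested gene of the venous, lymphatic and arterial lists in mural endocardium (points, with standard errors as bars), filled where the gene passed the threshold. *Nrp2* and *Flt4* are in 2 of the lists. *Sox18* (-2.26) and *Flt4* (-1.11) are lower and *Tll1* (1.05) is higher, and the other filled point is *Efnb2* (-0.53).

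In coronary endothelium none of the 9 venous, 8 lymphatic or 6 forkhead and COUP genes tested passed by edgeR, where 0.637% of all genes were called. Of 12 arterial genes *Gja5* fell, from 48.2 and 40.9 to 24.5 and 21.1 CPM (log2 -0.89, SE 0.17, adjusted p = 0.0475), a call lost under 5 of 11 settings, and the list median was -0.37. *Mrc1*, the mannose receptor gene, fell from 16.9 and 16.7 to 5.11 and 4.22 CPM (log2 -1.76, SE 0.25, adjusted p = 0.0123), a call lost under 2 of 11. The 8 leukocyte markers within the coronary class were at 24.4 and 17.3 CPM in control and 10.2 and 12 CPM in eKO, with *Ptprc* at most 0.538 CPM. In coronary cells with 0 UMIs of leukocyte and macrophage markers the log2 fold change of *Mrc1* was -1.72 (adjusted p = 0.0209). In valve endocardium, where 0.268% of all genes were called, 6 venous genes were tested and *Nt5e*, which encodes the ectonucleotidase CD73, rose from 18.8 and 21.7 to 84.1 and 50.9 CPM (log2 1.79, SE 0.33, adjusted p = 0.04), with the call lost under 3 of 11, among them without eKO 1 (1.37, adjusted p = 0.155). None of 8 arterial and 5 lymphatic genes tested there passed. In leukocytes no gene of the 5 lists passed.

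The difference of the eKO effect between coronary and mural endothelium was tested too, where 1.78% of 13036 genes were called and none of the 8 members was, with 2 at an unadjusted p of 0.05. Among the list genes, *Sox18* had a smaller effect in coronary endothelium, where it was 119.7 and 90.3 CPM in control and 43.9 and 62.9 CPM in eKO without passing the test, and the difference between the effects was 1.38 (SE 0.18, adjusted p = 8.3e-05). For *Foxo1* it was 0.44 (SE 0.11, adjusted p = 0.0459) and for *Itga9*, an integrin gene of lymphatic valves, -0.50 (SE 0.13, adjusted p = 0.0431). With stricter gates the *Foxo1* difference was 0.40 and did not pass the threshold (adjusted p = 0.0779).

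Likeness of pattern was measured as Pearson's r of log2(CPM + 1) over 28 values, 7 classes in each of 4 libraries, among 11898 genes with a class mean of at least 10 CPM. The values share libraries and classes and are not independent, so r is a description. *Nr2f2* was most like *Ackr3* (r = 0.965), *Sfr1* (0.96) and *Csgalnact1* (0.952), and *Nr2f1* most like *B130055M24Rik* (0.881). *Foxc2* was among the 3 genes most like *Foxc1* (0.952), after *Cemip2* (0.953), and *Foxc2* was itself nearest to *Ebf1* and *Atp2b4* (0.957 each). *Prox1* was nearest to *Mtus1* (0.911), *Dab2* to *Trf* (0.958), *Lyve1* to *Ifi211* (0.957) and *Stab1* to *Dusp2* (0.981). Among the 8 genes, the next highest pair after *Foxc1* and *Foxc2* was *Nr2f2* and *Foxc1* (0.84), followed by *Lyve1* and *Stab1* (0.807).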

How the data were processed

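UMI counts per gene and cell barcode were deposited by the authors, who made them with Cell Ranger 7.1.0 on mm10 (Seurat 4.3.0 is also named in the submitters' processing notes), with cells called and no normalization. Their background and doublet steps were not repeated, and doublets were treated by leaving out cells past 2 lineage gates. Cells with 200 to 7000 genes and at most 20% mitochondrial, 35% ribosomal and 2% hemoglobin UMIs were kept. Classes were gated on marker UMIs per 10000 (endothelial 10, cardiomyocyte 100, mesenchymal 20, epicardial 10, leukocyte 10, each with at least 3 markers; coronary 20, mural 8 and valve 4 within endothelial cells). The gate values were set after seeing the data.

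The UMIs of each class were added up within a library, and these sums were compared by the quasi-likelihood test of edgeR 4.0.16 (R 4.3.3) after TMM scaling and the filterByExpr filter. P-values were adjusted over all genes tested by Benjamini-Hochberg, with a threshold of 0.05; adjusted p-values in the text are from edgeR unless DESeq2 is named. SE is the absolute log2 fold change over the square root of F. With 2 libraries per group, p-values measure the spread between pools of 3 embryos. Shares of cells were compared by exact permutation. Groups of 2 libraries that do not overlap have a p of 0.3333 by that test. Overlap is given as a description, and the share of all genes without overlap was not counted. The test was also tried on simulated counts, with an outcome that is not given here, and no call rests on it. Same-numbered libraries did not deviate together. The alternatives tried were total count scaling, DESeq2 1.42.0, no count filter, replicate block, each library left out, gates doubled, cells past 2 gates kept, 1000 or all UMIs for shares, and, added after seeing the data, cells without markers of other types. Cells were split by sex-linked UMIs as a further check added after seeing the data.

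Members and lists were chosen with earlier results of these data known. Named genes are the 8 members, *Ets1*, list genes past the threshold, and the genes most like each member. Genes of paired cell shares were chosen as arterial or venous markers. Python 3.11.15, numpy 2.4.6, pandas 2.3.3 and scipy 1.17.1 were used.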

Additional observations from a re-analysis of the deposited data

Results flagged for a closer look

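*Nr2f2* was singled out because its eKO effect differed between valve and mural endocardium by 1.49 on the log2 scale (edgeR adjusted p = 0.013). *Sox18* was singled out because its effect differed between coronary endothelium and mural endocardium by 1.38 (adjusted p = 8.3e-05), and *Itga9* and *Foxo1* because theirs differed by -0.50 (adjusted p = 0.0431) and 0.44 (adjusted p = 0.0459). With stricter gates *Sox18* stood at 1.57 and *Itga9* at -0.58, both called, and *Foxo1* at 0.40 (adjusted p = 0.0779), not called. *Lyve1* stood out in cells that entered no test across genes, the endothelial cells in no subclass gate, with a mean of 47 CPM in eKO against 5.03 and 6.95 CPM in the controls. In the same cells *Nr2f2* and *Foxc2* were also higher in eKO and *Prox1* and *Stab1* lower, each without overlap.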

How the results depend on the processing

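Counts of genes called moved with the settings, and the cause was not tested. In coronary endothelium (72 called) they were 315 without the count filter, 34 with stricter gates, 13 with cells past 2 gates kept and 102 to 882 with each library left out. In mural endocardium (399) they were 1131 without the filter, 254 with cells past 2 gates kept and 453 to 1431 with each library left out. In valve endocardium (23) they were 7 under DESeq2, 107 without the filter, 10 with stricter gates, 14 with cells past 2 gates kept, 3 in cells without markers of other types and 24 to 80 with each library left out. In leukocytes (11) they were 5 under DESeq2, 66 without the filter, 5 with stricter gates, 3 with cells past 2 gates kept and 29 to 66 with each library left out. In mesenchymal cells (3) they were 123 under DESeq2, 541 without the filter, 118 with the replicate block and 0 to 297 with each library left out, and in cardiomyocytes (0) 25 under DESeq2, 155 with the block and 9 to 870 with each library left out, where 1 member, *Lyve1*, was called without eKO 1. In epicardial cells (0) they were 8 under total count scaling, 74 without the filter, 13 with the block and 27 to 98 with each library left out. Replicate numbers share only a number (same-number correlations of -0.0919 to -0.0136 in 7 classes), and with the replicate block the counts in coronary, mural, valve and leukocyte classes were 125, 755, 72 and 18. Total count scaling moved the median over all genes (log2) from 0.01 to -0.10 in cardiomyocytes and to between -0.08 and -0.02 in the other classes, and turned the mural split of 185 higher and 214 lower into 180 and 358, the coronary split of 46 and 26 into 38 and 46, and the valve split of 10 and 13 into 10 and 20.

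Members called in mural endocardium numbered 2 under total count scaling, with *Dab2* added. In valve endocardium they numbered 0 under DESeq2, stricter gates, cells past 2 gates kept and cells without markers of other types, and 0 to 1 with each library left out. *Nr2f2* there was then 1.31, 1.29, 1.14 and 1.38, and 0.91 to 1.59 with each library left out. Values that changed sign included *Prox1* in mural endocardium (-0.0822 to 0.22 with each library left out) and *Foxc2* in valve endocardium (0.10 with stricter gates). *Nr2f2* between valve and coronary endothelium did too (0.0543 with stricter gates, -0.45 to 0.21 with each library left out, called at -0.45). So did the share of valve cells with *Prox1* (-3.58 points at 1000 UMIs, -5.93 with all UMIs, -1.34 to 4.4 with each library left out). With all UMIs the difference in share also turned for *Prox1* in mural endocardium (0.601 to -2.81 points) and *Lyve1* in C1q-type leukocytes (1.53 to -1.01). *Lyve1* in mural endocardium kept its call and direction under all 11 settings. *Lyve1* and *Nr2f1* were too low to test in valve endocardium, with 16 and 1 UMIs.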
